A study of Mus musculus with 12 samples.

Results

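The Bcl2 family of mitochondrial apoptosis was followed through 10 of its genes in mouse pancreatic tumors that can switch mutant p53 on and off. The genes were taken by name from the 22630 genes of each tumor's table, whatever their values, and comprise 4 pro-survival genes (Bcl2, Bcl2l1, Bcl2l2 and Mcl1), 2 effectors (Bak1 and Bok) and 4 BH3-only genes (Bad, Bik, Bmf and Bcl2l11). RNA was sequenced from 12 subcutaneous tumors, 4 per group, grown in NSG mice of 8 to 10 weeks from 500000 injected cells each. NSG mice are immunodeficient and lack mature T, B and NK cells. All tumors came from KCip53-1, a single pancreatic cancer line derived from a pancreatic tumor of a genetically engineered mouse whose Ptf1a-Cre is active in pancreatic cells. In this line, doxycycline (dox) induces a transgene for the p53 mutant R270H. No-dox mice never received dox (0 days), although the study propagated its KCip53 lines in culture with dox. In the KCip53 lines that it sequenced, the study found only the mutant p53 sequence, with the wild type lost. Plus-dox mice had 0.2 g/l dox in their water for 36 days. Off-dox mice had the same water for 33 days, followed by 3 days off dox. These times are those of the sample labels, whereas the study's text places withdrawal at the stage of palpable tumors, and the labels are followed here. Dox water held 5% sucrose, so dox and sucrose cannot be told apart.

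The proteins of this family decide whether the outer mitochondrial membrane stays closed. The effectors, with Bax as the other widely expressed member, open the membrane and release cytochrome c, after which caspases dismantle the cell. Pro-survival proteins hold the effectors in check by binding their BH3 helix in a surface groove, and BH3-only proteins, each switched on by its own kind of stress, fill that groove or engage the effectors directly. Much of this control acts on protein turnover, phosphorylation and localization, which RNA levels do not show. In the study, the balance of pro-apoptotic and antiapoptotic factors was of interest for how mutant p53 might support epithelial survival. That balance was measured by qRT-PCR in pancreata with precursor lesions, not in the tumors used here. The study's results give no significant difference after mutant p53 was inactivated, whereas its discussion describes an increased ratio. For the sequenced tumors, the study reports reduced apoptotic pathways with mutant p53. By staining for cleaved caspase-3, however, it found no difference in apoptosis between KCip53-derived tumors with and without dox.

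The BH3 region is the stretch through which these proteins bind each other, and its coding sequence is shown for all 10 genes because it defines their membership. A search of the longest annotated protein of each gene for a leucine or methionine, any 3 residues, then glycine, alanine or serine and an aspartate gave 1 match in each. Such a short motif is not rare, since it occurred in 8107 of 21370 genes with a complete protein (37.9%). Each line gives 24 bases of the coding strand with mm9 positions, and capitals mark the codon of the leading leucine or methionine and the pair of codons that ends in aspartate.
Bcl2 (chr1:108609155-108609178, minus strand): CTCcgccgggctGGGGATgacttc
Bcl2l1 (chr2:152655436-152655459, minus strand): CTGagagaggcaGGCGATgagttt
Bcl2l2 (chr14:55503354-55503377, plus strand): ATGcgggctgctGGAGACgagttt
Mcl1 (chr3:95463359-95463382, plus strand): CTGcggcgcgtgGGCGACggcgtg
Bak1 (chr17:27159479-27159502, minus strand): CTTgctctcatcGGAGATgatatt
Bok (chr1:95583234-95585744, plus strand): CTGctgcgcttgGGAGATgagctg
Bad (chr19:7025282-7025305, plus strand): CTCcgaaggatgAGCGATgagttt
Bik (chr15:83373514-83373537, plus strand): CTGgcctgcatcGGCGATgagatg
Bmf (chr2:118370839-118370862, minus strand): CTTcagtgtattGCAGACcagttc
Bcl2l11 (chr2:127972886-127972909, plus strand): CTGcggcggatcGGAGACgagttc

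The leading codon was for leucine in 9 genes and for methionine in Bcl2l2. The residue before the aspartate was glycine in 8 genes, serine in Bad and alanine in Bmf. All of these stretches lay within 1 coding exon except that of Bok, which crosses an intron, so that its 24 bases extend over 2511 bases of the genome.

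Whole, unsorted tumors were sequenced, so host cells contribute to every level, and fewer cells of a type cannot be told apart from less RNA per cell. The tables held 19845923 to 33137609 counted reads per tumor. Genes took up 88.4% to 89.4% of mapped reads in no-dox tumors and 81.1% to 87.1% in the other 8, a gap that cannot be told apart from the treatment. Trp53, counted without regard to allele, ran from 40.1 to 57.4 RPKM (reads scaled to exonic length and to all mapped reads) without dox, 40.4 to 56.0 on dox and 41.6 to 45.4 off dox. These ranges overlap, so total Trp53 does not check the dox labels. Epithelial keratin Krt8 was at 318 RPKM or more in every tumor, whereas 5 of 6 pancreatic acinar markers were under 1 RPKM throughout, among them Prss1, Amy2a5 and Ptf1a at 0, and the other, Cela1, was at 6.26 to 116 RPKM. Of 9 T, B and NK cell markers, 7 were under 1 RPKM throughout. Plus-dox tumor 2 and off-dox tumor 4 stood apart from the rest in Epcam, at 7.76 and 40.9 RPKM against 72.3 to 388 in the other 10 tumors. Cdh1 was also lowest there (22.1 and 42.1 RPKM against 57.5 to 190.8). Krt8, at 531.8 and 525.3 RPKM, lay inside the range of the other 10 (317.7 to 972.5). The lowest summed RPKM of 10 epithelial markers was that of off-dox tumor 3 (1079), below plus-dox tumor 2 (1366) and off-dox tumor 4 (1570). Since mice were implanted with 2 tumors each and the pairs are not recorded, some tumors may come from the same animal. The tests treat them as independent, which makes p-values too small where they are not.

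Across the 12 tumors, expression differed far more between members than between treatments. On the RPKM scale, Mcl1 had the highest mean (99.5) and Bik the lowest (1.63), a 60.9-fold difference. The order of the mean RPKM was Mcl1, Bok, Bad, Bcl2l1, Bak1, Bcl2l2, Bmf, Bcl2l11, Bcl2 and Bik. Mcl1 exceeded Bok in 10 of 12 tumors and Bok exceeded Bad in all 12. Bad and Bcl2l1 were not separated, with Bad the higher in 7 of 12 tumors, and neither were Bmf and Bcl2l11 (Bmf higher in 7 of 12). Bcl2l1 exceeded Bak1, Bak1 exceeded Bcl2l2, Bcl2l11 exceeded Bcl2 and Bcl2 exceeded Bik in all 12 tumors, while Bcl2l2 exceeded Bmf in 10. Bcl2, which gave the family its name, thus stood next to last. The plot of RPKM by tumor shows each of these values.

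**Figure D1:**
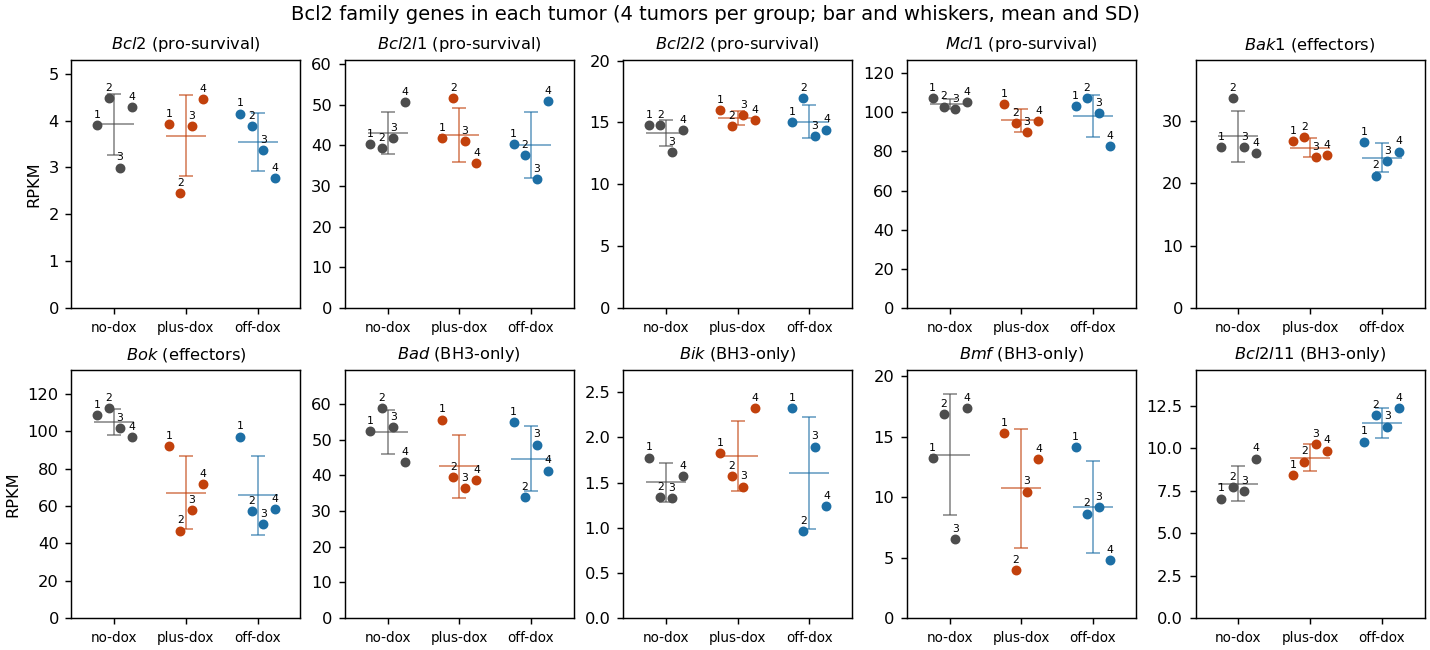
RPKM of the 10 Bcl2 family genes (vertical axes, each from 0) in no-dox, plus-dox and off-dox tumors; points are single tumors with their number in the group, and bars with whiskers are the mean and SD of 4 tumors. Bok lay at 96.9 RPKM or more in every no-dox tumor and at 92.3 or less in every plus-dox tumor, and Bcl2l11 at 10.4 or more in every off-dox tumor and at 10.3 or less in the other 8.

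Gene expression was compared between groups with edgeR's quasi-likelihood test over 17561 genes, and a gene was called where its Benjamini-Hochberg adjusted p was under 0.1, its change over 1.5-fold, its mean over 0.25 RPKM and its exonic length over 250 bases. By these limits, 0 of the 10 members were called between plus-dox and no-dox tumors, against 0.0% of all genes. For off-dox vs no-dox 0 of 10 were called, against 1.34% of all genes (235 genes), and for off-dox vs plus-dox 0 of 10, against 0.0%. At an unadjusted p under 0.05, 1 member (Bok) differed for plus-dox vs no-dox (13.7% of all genes did), 2 (Bok and Bcl2l11) for off-dox vs no-dox (20.4%), and 1 (Bcl2l11) for off-dox vs plus-dox (3.06%). DESeq2 called 0, 1 (Bok) and 0 members in the same order, against 128, 615 and 6 of the 17561 genes. With moderated fold changes it called 0 members in each, against 90, 396 and 4 of all genes. The first pair of comparisons shares its no-dox tumors, so Bok's difference in both is not independent. The median log2 fold change of the 10 members was -0.08 for plus-dox vs no-dox, -0.09 for off-dox vs no-dox and -0.02 for off-dox vs plus-dox. Over all genes tested it was 0.01, 0.01 and 0.00.

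**Figure D2:**
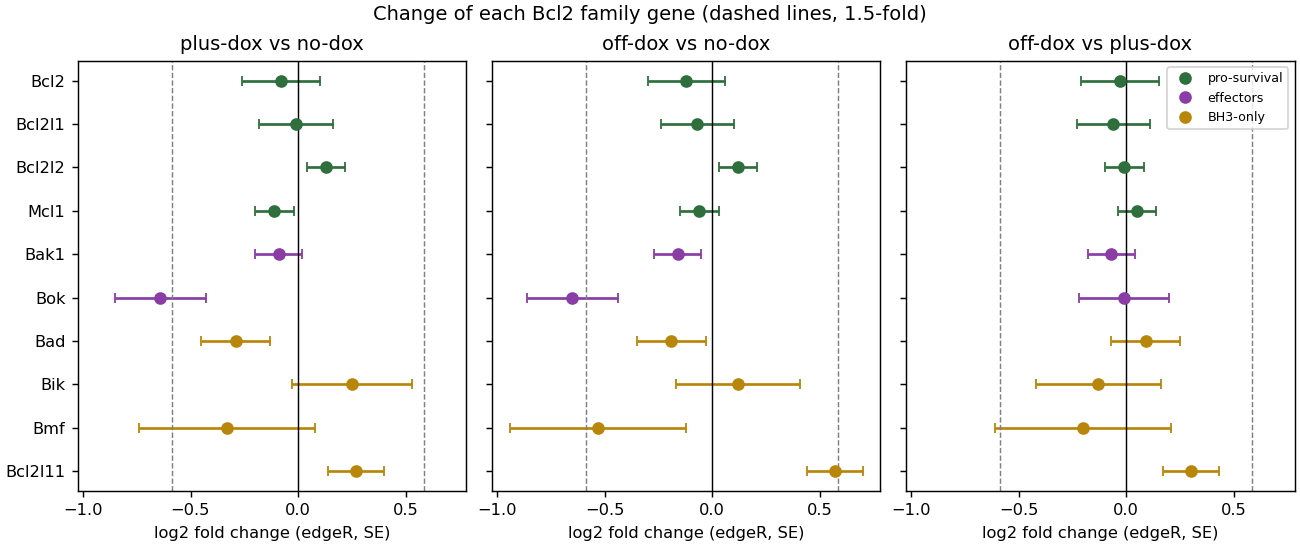
Log2 fold change of each member (horizontal axis, group named first relative to the second) with its standard error from edgeR in the 3 comparisons; colors give the role and dashed lines the 1.5-fold limit. Bok lay beyond the lower dashed line in both comparisons with no-dox tumors (-0.64 and -0.65), Bcl2l11 just inside the upper line for off-dox vs no-dox (0.57), and the 4 pro-survival genes between -0.12 and 0.13 throughout.

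The pro-survival genes had similar levels in the 3 groups. Mcl1 encodes a short-lived protein that restrains Bak1. It had 107, 103, 102 and 105 RPKM in no-dox tumors 1 to 4, 104, 94.3, 90.0 and 95.4 in plus-dox tumors and 103, 107, 99.6 and 82.9 in off-dox tumors. The groups overlapped, with the lowest value in off-dox tumor 4. Mcl1 supplied 54.9% to 67.1% of the summed RPKM of the 4 pro-survival genes. Bcl2l1, which encodes Bcl-xL, averaged 43.0 ± 5.2 RPKM without dox, 42.5 ± 6.7 on dox and 40.1 ± 8.0 off dox (SD, n = 4 each). Its highest values in the treated groups, 51.7 and 50.9 RPKM, were those of plus-dox tumor 2 and off-dox tumor 4, beside 50.7 in no-dox tumor 4. Bcl2l2, which encodes Bcl-w, averaged 14.1 ± 1.0, 15.4 ± 0.55 and 15.1 ± 1.4 RPKM in the same order. Bcl2 averaged 3.92 ± 0.66, 3.68 ± 0.86 and 3.54 ± 0.61 RPKM, and its lowest values, 2.45 and 2.77 RPKM, were again those of plus-dox tumor 2 and off-dox tumor 4. The log2 fold changes of these 4 genes lay between -0.12 and 0.13 in the 3 comparisons, and the largest standard error was 0.18 (edgeR, smallest adjusted p = 0.427).

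Of the effectors, Bok showed the largest difference between groups of any member, and it did not pass the adjusted test. Bok is a Bax- and Bak-like protein whose pore-forming activity is held down by protein degradation in healthy cells. It lies on chromosome 1 of mm9 (95582271 to 95592339, plus strand, 1432 exonic bases). Bok had 109, 113, 102 and 96.9 RPKM in no-dox tumors, 92.3, 46.8, 57.7 and 71.9 in plus-dox tumors and 97.2, 57.1, 50.3 and 58.4 in off-dox tumors. Every plus-dox tumor lay below every no-dox tumor, whereas off-dox tumor 1 lay just inside the no-dox range. Tumors of the no-dox group were close to each other (SD 7.05 RPKM), while those of the plus-dox and off-dox groups were spread over almost the same wide range (SD 19.7 and 21.3). The log2 fold change for plus-dox vs no-dox was -0.64 with a standard error of 0.21 (edgeR adjusted p = 0.326). For off-dox vs no-dox it was -0.65 with a standard error of 0.21 (edgeR adjusted p = 0.137). Off-dox and plus-dox tumors differed by -0.01 (standard error 0.21). Plus-dox tumors were fully separated from no-dox tumors in Bok alone, 1 of 10 members against 7.77% of all genes. Across 12 fits that each omitted 1 tumor, the off-dox vs no-dox change ran from -0.88 to -0.53 and the edgeR adjusted p from 0.0343 to 0.294. Bok was called in 1 of the 12, the fit without off-dox tumor 1 (-0.88, adjusted p = 0.0343). That omission also raised the genes called over all genes from 235 to 789. DESeq2 called Bok with all tumors (-0.64, adjusted p = 0.0576). Without plus-dox tumor 2 and off-dox tumor 4, the values were -0.51 (adjusted p = 0.385) for plus-dox and -0.61 (adjusted p = 0.127) for off-dox, both relative to no-dox tumors.

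Epithelial marker levels are given beside Bok because their sums also differed in range between the groups. The summed RPKM of 10 epithelial markers was 2326 to 3137 without dox, 1366 to 2059 on dox and 1079 to 2689 off dox. No marker of this list was at 0, and 0 of 10 were called in any comparison by edgeR. Their log2 fold changes ran from -1.15 (Epcam) to 0.80 (Cldn7) for plus-dox vs no-dox and from -0.87 (Epcam) to 0.44 (Cldn4) for off-dox vs no-dox, with 9 of 10 negative in each. Off-dox tumor 1 was the highest of its group in both Bok and the epithelial sum (2689), whereas plus-dox tumor 3 had the highest epithelial sum of its group (2059) with 57.7 RPKM of Bok, and plus-dox tumor 1 had the highest Bok of its group (92.3 RPKM) with a sum of 1833. Cela1, the acinar marker above 1 RPKM, had 58.1 to 116 RPKM without dox, 6.26 to 74.2 on dox and 8.12 to 95.4 off dox, and plus-dox tumor 1 and off-dox tumor 1 were the highest of their groups in the acinar sum as in Bok. The Cela1 log2 fold changes were -1.18 for plus-dox vs no-dox (edgeR adjusted p = 0.441) and -1.08 for off-dox vs no-dox (adjusted p = 0.388). Fibroblast markers did not follow the same pattern across groups, with sums of 1209 to 2157 without dox, 1714 to 3229 on dox and 1402 to 1623 off dox. The part of cell composition in the Bok difference was not tested. Bak1, the other effector measured here and a resident of the mitochondrial membrane, averaged 27.6 ± 4.1, 25.8 ± 1.6 and 24.1 ± 2.3 RPKM in no-dox, plus-dox and off-dox tumors (SD, n = 4 each). Its largest log2 fold change was -0.16 (off-dox vs no-dox, standard error 0.11, edgeR adjusted p = 0.418). Bak1 overlaps Ggnbp1 on the opposite strand, a gene at a mean of 1.29 RPKM.

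**Figure D3:**
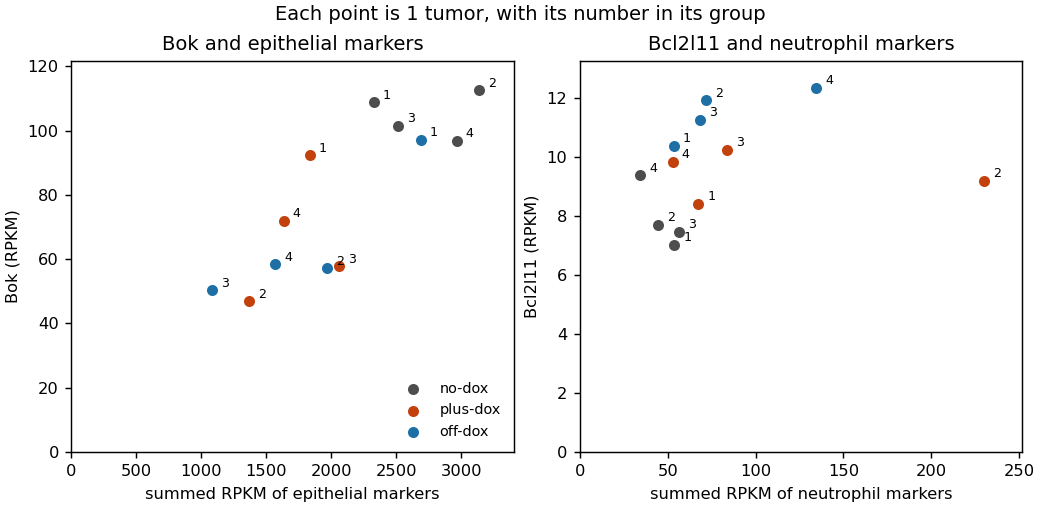
RPKM of Bok against the summed RPKM of 10 epithelial markers (left) and of Bcl2l11 against the summed RPKM of 6 neutrophil markers (right); each point is 1 tumor with its number. Bok was at 96.9 RPKM or more in the 5 tumors with the highest epithelial sums (2326 or more), and the tumors with the highest neutrophil sums, plus-dox tumor 2 (230) and off-dox tumor 4 (135), had 9.21 and 12.4 RPKM of Bcl2l11.

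Among the BH3-only genes, Bcl2l11 was highest after dox withdrawal. Bcl2l11 encodes Bim, which binds all pro-survival proteins and can engage the effectors, and it lies on chromosome 2 (127951774 to 127988283, plus strand, 5037 exonic bases). It had 7.03, 7.71, 7.47 and 9.39 RPKM in no-dox tumors, 8.43, 9.21, 10.3 and 9.86 in plus-dox tumors and 10.4, 11.9, 11.3 and 12.4 in off-dox tumors. On the RPKM scale every off-dox tumor lay above all 8 other tumors, while plus-dox and no-dox tumors overlapped. The gap to plus-dox tumors was narrow, with 10.26 RPKM in plus-dox tumor 3 and 10.39 in off-dox tumor 1. Relative to counted reads the order of these tumors was reversed (1900 of 30208368 and 1285 of 21061889). Relative to no-dox tumors, the off-dox log2 fold change was 0.57 (1.48-fold, standard error 0.13), with an edgeR adjusted p of 0.0832. It passed the limit on adjusted p, which 3.46% of all genes did, with a smallest adjusted p of 0.0786 for any gene, and fell just short of the 1.5-fold limit. The same change was 0.58 with an adjusted p of 0.00402 by DESeq2. For off-dox vs plus-dox the log2 fold change of Bcl2l11 was 0.30 with a standard error of 0.13 (edgeR adjusted p = 1.0). The plus-dox vs no-dox change was 0.27 with a standard error of 0.13 (edgeR adjusted p = 0.373). By RPKM, Bcl2l11 was the only member whose off-dox tumors did not overlap the no-dox tumors (11.4% of all genes did not). It was also the only such member for off-dox and plus-dox tumors by RPKM (1.49% of all genes).

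The adjusted p of Bcl2l11 was lost on leaving out most single tumors. Across 12 fits that each omitted 1 tumor, its off-dox vs no-dox change stayed between 0.50 and 0.68, but the adjusted p was under 0.1 in 3 of 12 fits, those without plus-dox tumor 1 (0.0883), plus-dox tumor 2 (0.0753) and off-dox tumor 1 (0.0396). It reached 0.218 without off-dox tumor 2 and lay between 0.108 and 0.212 without each of the other 8. The call was made without off-dox tumor 1, where the change was 0.62. Neutrophil marker levels are given beside Bcl2l11. The summed RPKM of 6 neutrophil markers was 34.2 to 56.2 without dox, 52.7 to 230 on dox and 53.3 to 135 off dox, and Retnlg was under 1 RPKM in every tumor. Of these markers, 2 of 6 were called for off-dox vs no-dox, against 1.34% of all genes. They were Cxcr2 and Csf3r (log2 fold changes 0.90 and 0.78, edgeR adjusted p = 0.0832 for each). For off-dox vs plus-dox, 0 of 6 were called, and their log2 fold changes ran from -0.54 (Mmp9) to 0.45 (Retnlg), with 0.01 for Cxcr2 and 0.14 for Csf3r. By tumor, the highest neutrophil sum, in plus-dox tumor 2 (230), came with 9.21 RPKM of Bcl2l11, and the next highest, in off-dox tumor 4 (135), with 12.4 RPKM, the most of all 12 tumors. Of the other marker lists, 1 gene each was called for off-dox vs no-dox among T, B and NK cell markers and among skeletal muscle markers. All 10 muscle markers had positive log2 fold changes there (1.91 to 5.15), 7 of them at an unadjusted edgeR p under 0.05 (20.4% of all genes). Their sums overlapped, at 11.1 to 191 RPKM without dox and 12.8 to 1317 off dox. All 9 T, B and NK cell markers were positive for off-dox vs no-dox (0.30 to 1.49), 2 of them under that limit. Cd4, which macrophages and dendritic cells can also express, averaged 2.48 ± 0.45, 3.19 ± 0.41 and 4.02 ± 0.81 RPKM in no-dox, plus-dox and off-dox tumors (SD, n = 4 each), with a log2 fold change of 0.73 for off-dox vs no-dox (edgeR adjusted p = 0.0933). Actn3, a protein of fast muscle fibers, ran from 0.32 to 1.28 RPKM without dox and from 0.67 to 40.4 off dox, with a log2 fold change of 4.53 (edgeR adjusted p = 0.0876). The part of these cell types in the Bcl2l11 difference was not tested.

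Bad, Bik and Bmf did not pass any test between groups. Bad, whose binding to Bcl-xL is switched off by growth factor signaling through phosphorylation, was the most abundant BH3-only gene. It had 52.5, 58.9, 53.6 and 43.8 RPKM in no-dox tumors, 55.7, 39.5, 36.5 and 38.7 in plus-dox tumors and 55.0, 33.8, 48.7 and 41.4 in off-dox tumors. In plus-dox tumors 2 to 4 it lay below every no-dox tumor, while plus-dox tumor 1 lay inside the no-dox range. Its log2 fold changes were -0.29 for plus-dox (standard error 0.16, edgeR adjusted p = 0.428) and -0.19 for off-dox tumors (standard error 0.16, adjusted p = 0.506) relative to no-dox tumors. Bad overlaps Gpr137 on the opposite strand, at a mean of 12.3 RPKM, and the libraries did not keep strand. Bik averaged 1.50 ± 0.21, 1.79 ± 0.39 and 1.61 ± 0.62 RPKM in no-dox, plus-dox and off-dox tumors (SD, n = 4 each), with the 4 off-dox tumors ranging from 0.96 to 2.33.

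Bmf varied more between tumors than any other member, and within every group. Bmf encodes a BH3-only protein tied to the cytoskeleton and known for its part in cell death after loss of attachment. It lies on chromosome 2 (118354493 to 118375414, minus strand, 4633 exonic bases). It had 13.2, 16.9, 6.51 and 17.4 RPKM in no-dox tumors, 15.3, 3.97, 10.5 and 13.1 in plus-dox tumors and 14.1, 8.64, 9.20 and 4.81 in off-dox tumors. Its SD over the 12 tumors was 0.68 on the log2 CPM scale (CPM, counts scaled to the library total), against 0.45 for Bok and 0.34 or less for the other 8. Its lowest values were those of plus-dox tumor 2, off-dox tumor 4 and no-dox tumor 3, 1 in each group. The group means of 13.5 ± 5.0, 10.7 ± 4.9 and 9.19 ± 3.8 RPKM (SD, n = 4 each) lay within the range of tumors of each group, and the off-dox vs no-dox log2 fold change was -0.53 with a standard error of 0.41 (edgeR adjusted p = 0.483).

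Of 12693 genes with a mean over 1 RPKM, those most like Bmf across the 12 tumors were Aldh5a1, Bbs2 and Slc12a8, with Pearson correlations of 0.99, 0.98 and 0.98 on log2 CPM. Without plus-dox tumor 2 and off-dox tumor 4 the same correlations were 0.97, 0.96 and 0.95 over 10 tumors. These values are descriptive, since the genes were chosen as the highest of all. The tumors share a cell line but differ in host content, and Slc12a8 had 0.23 and 0.31 RPKM in plus-dox tumor 2 and off-dox tumor 4 against at least 0.65 in the other 10. For no other member did the spread over tumors reach the 0.5 on the log2 scale set for such a search.

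The ratio of summed pro-apoptotic to summed pro-survival RPKM describes the balance of transcripts among the members alone. Other family genes are in neither sum, among them Bax (mean 63.7 RPKM over all tumors) and the pro-survival Bcl2a1b (41.7 RPKM). The ratio therefore does not give the balance of the whole family. It was 1.26, 1.43, 1.24 and 1.11 in no-dox tumors, 1.21, 0.79, 0.93 and 1.06 in plus-dox tumors and 1.26, 0.81, 0.98 and 0.95 in off-dox tumors. The group means were 1.26 ± 0.13, 1.00 ± 0.18 and 1.00 ± 0.19 (SD, n = 4 each). Plus-dox and off-dox tumors had the same mean, and the no-dox range overlapped both, through plus-dox tumor 1 and off-dox tumor 1. Bok alone supplied 48.7% to 52.0% of the pro-apoptotic sum without dox, 36.5% to 46.1% on dox and 34.7% to 47.3% off dox. Without Bok the ratio was 0.62 ± 0.08, 0.57 ± 0.06 and 0.58 ± 0.09. The pro-survival sum, at 165 ± 6.9, 158 ± 8.0 and 157 ± 8.6 RPKM, varied less between tumors than the pro-apoptotic sum, at 208 ± 17, 158 ± 31 and 157 ± 33 RPKM. Without Mcl1 the ratio was 3.43, 2.59 and 2.70 in no-dox, plus-dox and off-dox tumors, and as pro-apoptotic minus pro-survival mean log2 CPM, which weights every gene equally and is not scaled to length, it was -1.36, -1.50 and -1.49. The leaving out of Bok was chosen after seeing the data, and no test is given for a score summed over chosen genes.

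**Figure D4:**
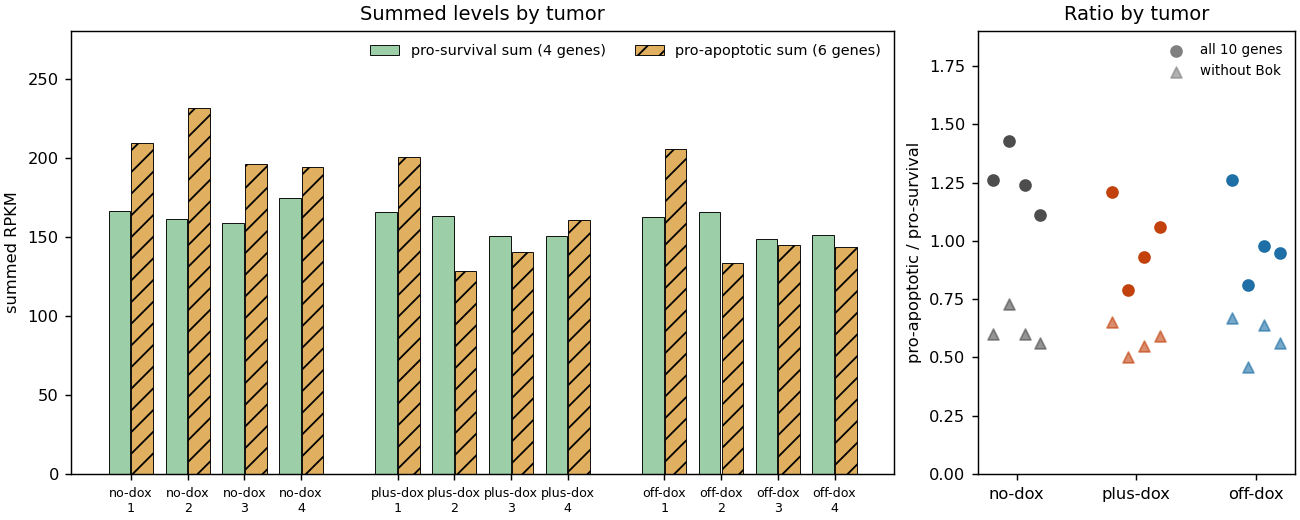
Left, summed RPKM of the 4 pro-survival and 6 pro-apoptotic genes in each tumor (bars from 0); right, their ratio per tumor with all 10 genes (circles) and without Bok (triangles). The pro-apoptotic sum exceeded the pro-survival sum in all 4 no-dox tumors, in plus-dox tumors 1 and 4 and in off-dox tumor 1. Without Bok every ratio was 0.73 or less.

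The rest of the family and the genes acting downstream were examined with lists of 13 and 17 genes. Of the 13 other family genes, 0 were called in any comparison by edgeR. At an unadjusted p under 0.05, 0 differed for plus-dox vs no-dox, 2 for off-dox vs no-dox (Bcl2a1a and Bcl2a1b, both higher off dox) and 2 for off-dox vs plus-dox (Bcl2a1b and Bcl2a1d, both higher off dox). These counts were 0.0%, 15.4% and 15.4% of the list, against 13.7%, 20.4% and 3.06% of all genes. Bax, the most abundant of them and with Bak1 the main effector, averaged 65.2 ± 6.6, 65.0 ± 11 and 60.9 ± 7.7 RPKM in no-dox, plus-dox and off-dox tumors (SD, n = 4 each), with a log2 fold change of 0.01 in plus-dox relative to no-dox tumors (standard error 0.14). Bcl2a1b, a pro-survival gene of blood cells, had 36.8, 31.0, 39.4 and 26.2 RPKM in no-dox tumors, 42.6, 35.5, 40.0 and 36.9 in plus-dox tumors and 41.0, 58.7, 73.9 and 38.3 in off-dox tumors. Its highest values were those of off-dox tumors 2 and 3, while off-dox tumor 4 lay inside the no-dox range. Off-dox relative to no-dox tumors, it differed by 0.69 on the log2 scale (standard error 0.20, edgeR adjusted p = 0.105). DESeq2 called it (0.70, adjusted p = 0.0237) along with Bcl2a1a in that comparison, and no other gene of the 13 in any. Bcl2a1a, Bcl2a1b and Bcl2a1d are near-identical copies, so reads may be divided wrongly among them. Bid, which links death receptors to the mitochondria, averaged 17.8 ± 2.4, 13.4 ± 4.7 and 12.9 ± 1.6 RPKM. By RPKM its off-dox tumors (10.9 to 14.3) lay below its no-dox tumors (14.4 to 19.9). Bid was the only gene of the 13 without overlap there, against 11.4% of all genes. Relative to counted reads the groups overlapped (808 of 25088486 in off-dox tumor 4, 1007 of 33137609 in no-dox tumor 4). The off-dox vs no-dox log2 fold change of Bid was -0.42 (standard error 0.22, edgeR adjusted p = 0.292). Hrk and Bcl2l10 were under 0.25 RPKM on average. The median log2 fold change of the 13 genes was 0.04, 0.21 and 0.15 in plus-dox vs no-dox, off-dox vs no-dox and off-dox vs plus-dox.

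Of the 17 downstream genes, 0 were called in any comparison by edgeR, and all had a mean of at least 7.24 RPKM. Those with the highest means were the mitochondrial channels Vdac2, Vdac1 and Vdac3. Vdac2 averaged 127 ± 5.4, 122 ± 13 and 129 ± 14 RPKM in no-dox, plus-dox and off-dox tumors (SD, n = 4 each), and the log2 fold changes of all 3 channels lay between -0.13 and 0.09. At an unadjusted p under 0.05, 2 genes differed for plus-dox vs no-dox (Apaf1 higher, Casp6 lower), 4 for off-dox vs no-dox (Apaf1 higher, and Casp6, Diablo and Endog lower) and 0 for off-dox vs plus-dox. These counts were 11.8%, 23.5% and 0.0% of the 17 genes, against 13.7%, 20.4% and 3.06% of all genes. DESeq2 called Endog for off-dox vs no-dox and no other downstream gene in any comparison. The genes named by these counts were chosen after their values were seen. Apaf1, the scaffold of the caspase-activating apoptosome, averaged 6.68 ± 0.90, 7.92 ± 0.67 and 8.43 ± 0.79 RPKM. Casp6, an executioner caspase, averaged 37.3 ± 3.2, 28.6 ± 3.2 and 28.9 ± 5.1 RPKM. The median log2 fold change of the 17 genes was -0.06, -0.05 and 0.00 in the order above.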

How the data were processed

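Gene tables of 12 subcutaneous tumors were used, 4 per group by the sample labels. Per the labels and methods, polyA, non-stranded 50-bp reads were mapped to mm9 with TopHat (1.4.1) and Bowtie (0.12.8), and coverage was taken with bedtools (2.16.2). The deposited expected counts were made by the authors from base-wise coverage of unambiguous exonic spans of RefSeq genes, without normalization. The deposited RPKM values were computed by the authors from exonic length and the total of mapped reads. How multiply mapping reads were treated is not given in the sources used here.

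Expected counts were rounded and tested with edgeR (4.0.16; R 4.3.3) using TMM, genes with at least 10 counts summed over tumors, and a single fit of the 3 groups without covariates. The same limits were applied to DESeq2 (1.42.0) as an alternative, the tool the authors used. Log2 CPM used a prior count of 2. The scripts were tested on simulated counts. Library totals ran from 19845923 to 33137609 counted reads. Coding sequences came from the GENCODE annotation of the same genome build, and protein tables were not used here. The members, lists and limits were chosen with earlier results of these data known. Named genes were the 10 members, the 3 genes of highest mean RPKM in each other list, any gene called, and the 3 genes most like a member with an SD over 0.5. Genes named outside this rule are said to be so. An item of the downstream list is not reported here by name. Equal tumor numbers did not pair tumors across groups, since 2 of 12 same-numbered pairs had a correlation over 0.1. Replicate libraries differed by far more than sampling noise. Alternatives were other normalization, count filters, fits of 8 tumors, each tumor left out, a replicate block, a stricter adjusted p of 0.05, and, for the ratio, other units and members.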

Additional observations from a re-analysis of the deposited data

Results flagged for a closer look

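Within groups of 4 tumors, 2 of 51 sets of values had 1 tumor far from the other 3 by Dixon's test at the 95% level, and chance gives about 1 in 20. Bak1 was highest in no-dox tumor 2, at 33.8 RPKM, and Bad was highest in plus-dox tumor 1, at 55.7 RPKM.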

How the results depend on the processing

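Of 960 recomputed changes of the named genes, 950 kept their side of the limits, 10 were newly called and 0 turned direction, where a direction was read only from a change above its standard error. The 10 were of Bok, Bcl2l11 and Bcl2a1b, all for off-dox vs no-dox. In that comparison 1 member was called by DESeq2 (Bok) and 1 with at least 10 counts in every tumor (Bcl2l11), and 0 to 2 with a tumor left out (2 without off-dox tumor 1). Other pathway genes called numbered 3 by DESeq2, 1 with moderated fold changes, 2 with at least 10 counts in every tumor, 1 without plus-dox tumor 2 and off-dox tumor 4, and 0 to 3 with a tumor left out (3 without off-dox tumor 1, 1 without plus-dox tumor 2).

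Counts over all genes moved far more. For off-dox vs no-dox, the 235 genes became 0 at an adjusted p under 0.05, 615 by DESeq2, 396 with moderated fold changes, 122 without a filter on counts, 365 with at least 10 counts in every tumor, 3 in the fit of 8 tumors and 471 without plus-dox tumor 2 and off-dox tumor 4. With a tumor left out the count ran from 0 (on omitting no-dox 1, 2 or 4, plus-dox 4, off-dox 2, 3 or 4) to 789 (without off-dox tumor 1), with 1 without no-dox tumor 3 and 19 without plus-dox tumor 3. For plus-dox vs no-dox, 0 became 128 by DESeq2, 90 with moderated fold changes and 0 to 3 with a tumor left out (3 without plus-dox tumor 1). For off-dox vs plus-dox, 0 became 6, 4 and 0 to 1 (1 without off-dox tumor 1). With the tumor number as a replicate block the off-dox vs no-dox count was 0, and Bcl2l11 had an adjusted p of 0.133. Tumors with the same number had a mean correlation of -0.09 and those with different numbers 0.04, and 0 of 12 tumors correlated best with their own number in both other groups.

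The ratio of pro-apoptotic to pro-survival RPKM was taken over the members alone. In no-dox, plus-dox and off-dox tumors it was 3.43, 2.59 and 2.70 without Mcl1, and 0.62, 0.57 and 0.58 without Bok. As a difference of mean log2 CPM it was -1.36, -1.50 and -1.49. The causes of these shifts were not tested. The standard errors of the members' log2 fold changes ran from 0.09 to 0.41.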
